A study of Mus musculus with 16 samples.

Results

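The expression of 10 genes of squamous differentiation was followed in mouse airway cultures that had or lacked the matrix metalloproteinase Mmp7, with and without scratch injury. The genes were chosen by symbol: the envelope proteins Ivl, Sprr1a, Sprr3, Scel and Cnfn, the crosslinking enzyme Tgm1, the secreted proteins Sbsn, Krtdap and Ecm1, and the surface protein Ly6d. All 10 were among the 18193 genes measured, on 14 of the 34945 probe sets that carry a single gene symbol. The airway cells came from C57BL/6 mice and were grown at an air-liquid interface, where the cell layer is fed from below and its upper face is open to air. The 4 groups of 4 arrays were Mmp7-/- and wild-type cultures, each left uninjured or injured with 3 parallel scratches of a pipette tip, and every culture spent 24 h without serum before RNA was taken. The labels do not give the time between scratch and harvest, nor which cultures share an animal. The spread behind each p-value is that between these cultures alone.

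Stratified squamous epithelia such as the epidermis end their differentiation by building a cornified envelope, a shell of crosslinked protein beneath the plasma membrane. Involucrin (Ivl) and small proline-rich proteins are laid down as precursors and joined by transglutaminases, of which Tgm1 is the membrane-anchored form. The airway is normally lined by a pseudostratified epithelium of basal, secretory and ciliated cells, and squamous genes are known to be induced in it by injury, smoke and lack of vitamin A. Several of the precursor genes lie side by side in a cluster called the epidermal differentiation complex, and factors of the AP-1 family (Fos and Jun proteins) are known to act on many of them.

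Levels are given as log2 of the deposited intensity, and each gene is represented by the probe set with the highest mean over the 16 arrays. Background was set at 2.97, the 95th percentile of 162 values of spiked control transcripts on arrays where those controls were absent. By this measure 8 of the 10 genes had a mean above background, against 64.1% of all genes. Cnfn and Krtdap lay at background on all 16 arrays, and Ly6d lay close above it.

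The single Mmp7 probe set lay under background in all groups (2.13 to 2.59), so Mmp7 itself does not check the genotype labels. The arrays fell into 3 sets by which control transcript (Lys, Phe or Trpn) had been added, and the labels name no batch. Lys arrays were all Mmp7-null (uninjured 1 and 2, scratched 1 and 4). Trpn arrays were all wild-type (2 to 4 of each state). Phe arrays held wild-type array 1 of each state, Mmp7-null uninjured 3 and 4 and Mmp7-null scratched 2 and 3. Genotype and set can therefore be separated only through the Phe arrays, with 1 wild-type array per state. Wild-type scratched 3 and Mmp7-null scratched 1 had the lowest upper-quartile intensities (115 and 119). Wild-type scratched 4 had the widest gap between the 3′ and 5′ actin probes (2.62 log2). These 3 arrays are called doubtful below. Markers of basal (7 of 7), club (6 of 6) and multiciliated cells (7 of 7) lay above background in every group, as did those of hillock cells (6 of 6, Ecm1 among them). Of 6 epidermal markers, Krt10 and Lor were above background and Krt1, Flg, Dsg1a and Casp14 were not.

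**Figure D1:**
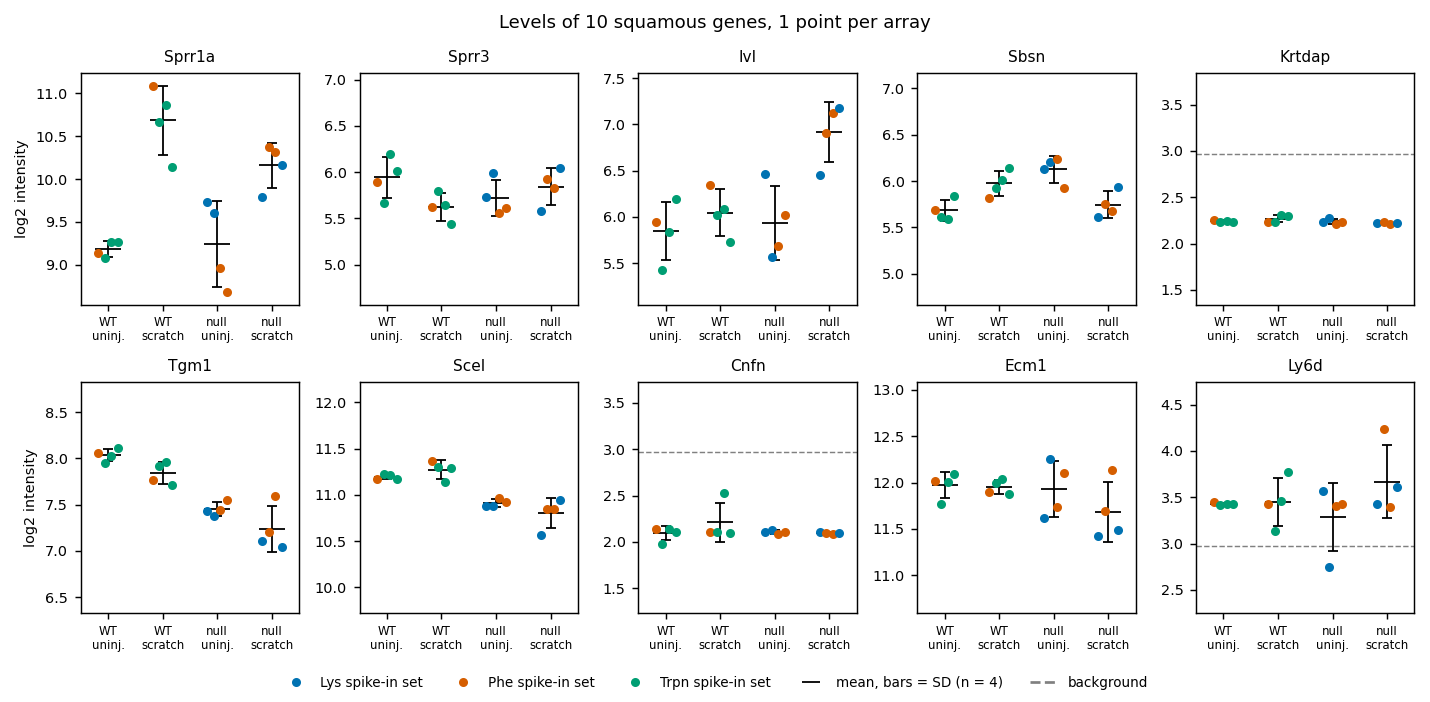
Level of each gene (log2 intensity, y axis) in the 4 groups (x axis), 1 point per array coloured by control set, with the group mean and SD (n = 4); the dashed line is background. Sprr1a rose after scratching in both genotypes, Ivl was highest in scratched Mmp7-null cultures, Tgm1 and Scel were lower in Mmp7-null cultures, and Cnfn and Krtdap stayed under the background line.

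Sprr1a, a small proline-rich precursor of the envelope, showed the widest range among the 10 genes. In wild-type cultures arrays 1 to 4 read 9.13, 9.08, 9.27 and 9.26 uninjured and 11.09, 10.66, 10.86 and 10.14 scratched. Every scratched array lay above every uninjured one. The means were 9.19 ± 0.094 and 10.69 ± 0.41 (SD, n = 4 each), a 2.83-fold rise (log2 fold change 1.50, SE 0.24, limma with Benjamini-Hochberg adjusted p = 0.0017). This rise kept its call in 26 of 26 alternative settings that had more than 1 array in each group, with log2 fold changes from 1.35 to 1.69. Within the Phe arrays, with 1 array in each group, it was 1.95.

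In Mmp7-null cultures Sprr1a read 9.73, 9.61, 8.96 and 8.68 uninjured and 9.79, 10.38, 10.32 and 10.16 scratched. The groups did not overlap, but the highest uninjured array came close to the lowest scratched one. The means were 9.24 ± 0.50 and 10.16 ± 0.26 (SD, n = 4 each), a 1.89-fold rise (log2 fold change 0.92, SE 0.24, adjusted p = 0.041). Among the uninjured cultures the Lys arrays (1 and 2) were higher than the Phe arrays (3 and 4). Within the Lys arrays the rise was 0.31 (SE 0.21, adjusted p = 0.62), and within the Phe arrays 1.53 (SE 0.21, adjusted p = 0.018). The adjusted p was 0.057 with the set as a block, and 0.068 when adjusted over all probe sets. With 1 of the 16 arrays left out in turn, the call ended in 11 of the fits (adjusted p 0.052 to 0.12). It held without Mmp7-null uninjured 1 or 2, Mmp7-null scratched 1, or wild-type scratched 1 or 4. Sprr1a did not differ between genotypes beyond the threshold in either state (uninjured 0.06, SE 0.24, adjusted p = 0.98; scratched -0.52, SE 0.24, adjusted p = 0.21).

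Ivl encodes involucrin, an early scaffold of the envelope. Its brighter probe set read 5.94, 5.43, 5.83 and 6.19 in uninjured wild-type cultures and 6.35, 6.03, 6.08 and 5.73 after scratching. In Mmp7-null cultures it read 6.46, 5.57, 5.69 and 6.02 uninjured and 6.46, 6.91, 7.12 and 7.18 scratched. Scratched Mmp7-null cultures stood above all scratched wild-type cultures, and above all uninjured Mmp7-null cultures except array 1, which matched the lowest scratched array. The group means were 5.85 ± 0.32 and 6.05 ± 0.25 in wild-type and 5.93 ± 0.40 and 6.92 ± 0.33 in Mmp7-null cultures (SD, n = 4 each).

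In wild-type cultures the scratch difference of Ivl was 0.20 (SE 0.22, adjusted p = 0.74). In Mmp7-null cultures Ivl rose 1.98-fold (log2 fold change 0.98, SE 0.22, adjusted p = 0.021). The call ended without Mmp7-null uninjured 2 or 3 or Mmp7-null scratched 3 or 4 (adjusted p 0.053 to 0.070), and with only the 8 arrays of the comparison (adjusted p = 0.087). The difference was 0.80 among Lys arrays alone and 1.16 among Phe arrays alone (adjusted p = 0.32 and 0.29). Among scratched cultures Ivl was 1.83-fold higher in Mmp7-null than in wild-type (log2 fold change 0.87, SE 0.22, adjusted p = 0.031). That difference was 0.68 with the set as a block (adjusted p = 0.42), 0.67 within the Phe arrays (adjusted p = 0.80) and 0.88 without the 3 doubtful arrays (adjusted p = 0.10). It also lost its call without Mmp7-null scratched 2, 3 or 4 or wild-type scratched 2, 3 or 4 (adjusted p 0.064 to 0.085). The dimmer Ivl probe set, 1422222_at, was above background on 6 of 16 arrays, ranged from 2.91 to 3.81 and gave no call (scratch in Mmp7-null 0.23, SE 0.14, adjusted p = 0.60 over all probe sets). With that wider adjustment the brighter probe set kept its scratch call in Mmp7-null cultures (adjusted p = 0.036). Its genotype call among scratched cultures ended (adjusted p = 0.051).

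Sprr3, another small proline-rich protein, ranged from 5.44 to 6.20 over the 16 arrays and gave no call. Its group means were 5.94 ± 0.22 and 5.62 ± 0.15 in wild-type cultures (uninjured, scratched) and 5.72 ± 0.19 and 5.84 ± 0.20 in Mmp7-null cultures (SD, n = 4 each). The scratch difference was -0.32 in wild-type (SE 0.13, adjusted p = 0.22) and 0.12 in Mmp7-null cultures (SE 0.13, adjusted p = 0.76). All groups overlapped.

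Ivl, Sprr1a and Sprr3 are neighbours in the epidermal differentiation complex on chromosome 3. The 250 bases before their starts are shown because Sprr1a and Ivl rose after scratching in at least 1 genotype and Sprr3, of the same family as Sprr1a, gave no call. They come from RefSeq, build GRCm38.p6, and lie on the minus strand at chr3:92485882-92486131 (Sprr1a), chr3:92573736-92573985 (Ivl) and chr3:92458721-92458970 (Sprr3). Capitals mark matches to the AP-1 motif TGANTCA.
Sprr1a: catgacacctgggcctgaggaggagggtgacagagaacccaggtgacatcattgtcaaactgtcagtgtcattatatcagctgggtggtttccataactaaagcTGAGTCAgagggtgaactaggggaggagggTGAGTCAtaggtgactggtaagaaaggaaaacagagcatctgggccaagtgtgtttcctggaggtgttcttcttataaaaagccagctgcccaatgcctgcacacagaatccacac
Ivl: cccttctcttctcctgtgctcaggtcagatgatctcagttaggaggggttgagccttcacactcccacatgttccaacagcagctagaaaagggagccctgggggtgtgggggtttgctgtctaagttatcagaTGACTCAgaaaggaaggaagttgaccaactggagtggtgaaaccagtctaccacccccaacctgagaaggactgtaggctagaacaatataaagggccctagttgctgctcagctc
Sprr3: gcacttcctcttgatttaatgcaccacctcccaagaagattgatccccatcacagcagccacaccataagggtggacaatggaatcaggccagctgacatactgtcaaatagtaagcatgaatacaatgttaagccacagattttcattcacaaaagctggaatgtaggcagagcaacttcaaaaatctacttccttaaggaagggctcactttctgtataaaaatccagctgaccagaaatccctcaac

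The Sprr1a window holds 2 matches, which begin 146 and 116 bases before the start, the Ivl window holds 1 at 116 bases, and the Sprr3 window holds none. A promoter was listed for 9 of the 10 genes (all but Ly6d), with 2 starts for Tgm1. The motif TGANTCA, searched on both strands, was found in 6 of these 9 genes (Ivl, Sprr1a, Krtdap, Sbsn, Ecm1 and Scel), against 6.75% of 32851 promoter windows of the same length. This pattern leaves the middle base free: the Sbsn match was TGAATCA, and the other matches were TGAGTCA or TGACTCA. The TATAAA motif was found in 5 of 9 (Ivl, Sprr1a, Sprr3, Krtdap and Ecm1), against 12.4% of all windows. AACCGGTT, bound by Grainyhead-like factors, was found in none of the 9 and in 0.116% of all windows. TGANTCA was present in genes that gave a call and in genes that did not, such as Krtdap, which lay at background throughout. It was absent at both starts of Tgm1, which gave calls. The printed windows were chosen by their result in these arrays, so their match counts are no test of the motif.

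Tgm1, the membrane-anchored transglutaminase that crosslinks envelope precursors, was lower in Mmp7-null than in wild-type cultures in both states. Wild-type arrays read 8.06, 7.95, 8.02 and 8.11 uninjured and 7.76, 7.92, 7.96 and 7.71 scratched. Mmp7-null arrays read 7.43, 7.38, 7.45 and 7.55 uninjured and 7.11, 7.21, 7.59 and 7.04 scratched. Every Mmp7-null array lay below every wild-type array of the same state. The means were 8.04 ± 0.067 against 7.45 ± 0.073 uninjured and 7.84 ± 0.12 against 7.24 ± 0.25 scratched (SD, n = 4 each). Tgm1 was 1.50-fold lower in uninjured Mmp7-null cultures (log2 fold change -0.59, SE 0.099, limma adjusted p = 0.0037) and 1.52-fold lower in scratched ones (-0.60, SE 0.099, adjusted p = 0.0023).

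Both Tgm1 calls were kept whichever array was left out, but the scratched one ended with only the 8 arrays of the comparison (adjusted p = 0.053). With the control set as a block the differences were -0.45 (adjusted p = 0.16) and -0.47 (adjusted p = 0.089). Within the Phe arrays they were -0.56 (adjusted p = 0.27) and -0.36 (adjusted p = 0.42). The scratch differences of Tgm1 were -0.20 in wild-type (adjusted p = 0.34) and -0.22 in Mmp7-null cultures (adjusted p = 0.28), neither past the threshold. The difference between the genotypes' scratch responses was -0.02 (SE 0.14).

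Scel encodes sciellin, a precursor of the envelope that is also made by some simple epithelia. It read 11.18, 11.22, 11.22 and 11.17 in uninjured and 11.37, 11.30, 11.13 and 11.29 in scratched wild-type cultures. In Mmp7-null cultures it read 10.88, 10.88, 10.96 and 10.92 uninjured and 10.57, 10.85, 10.85 and 10.95 scratched. As with Tgm1, the genotypes did not overlap in either state. Scel was 1.22-fold lower in uninjured Mmp7-null cultures (log2 fold change -0.29, SE 0.068, adjusted p = 0.028) and 1.38-fold lower in scratched ones (-0.47, SE 0.068, adjusted p = 0.0011). With the set as a block the differences were -0.29 (adjusted p = 0.32) and -0.47 (adjusted p = 0.042), and within the Phe arrays -0.23 (adjusted p = 0.89) and -0.52 (adjusted p = 0.098). The uninjured call also ended without Mmp7-null uninjured 1 or 2 or any 1 of the 4 wild-type uninjured arrays (adjusted p 0.054 to 0.088). Scratching moved Scel by 0.08 in wild-type and -0.11 in Mmp7-null cultures, with no call. The other Scel probe set, 1459426_at, lay at background on all arrays.

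Markers of other cell types also differed between the genotypes. Of 7 multiciliated markers 6 were higher in Mmp7-null cultures in each state, against 2.30% of all genes uninjured and 3.29% scratched. Their summed level was 13.01 to 13.29 in wild-type and 13.55 to 13.85 in Mmp7-null cultures uninjured, and 12.88 to 13.24 and 13.68 to 13.95 scratched. Of 5 alveolar type 1 markers 3 were lower in uninjured and 5 in scratched Mmp7-null cultures, against 2.50% and 2.92% of all genes. Their summed level was 14.77 to 14.81 in wild-type and 14.37 to 14.62 in Mmp7-null cultures uninjured, and 14.53 to 14.70 and 13.82 to 14.19 scratched. The mesenchymal markers Acta2 and Dcn were higher in uninjured Mmp7-null cultures (by 1.37 and 1.00), and Acta2 in scratched ones (1.10). Of 7 basal markers Krt5 was lower in uninjured Mmp7-null cultures (-0.36) and Krt14 higher in scratched ones (0.53). Of 6 hillock markers Lgals3 was higher in both states (0.27 uninjured, 0.24 scratched) and Krt4 lower in scratched Mmp7-null cultures (-0.59). No club marker was called between genotypes. Among scratched cultures Cd68 was lower in Mmp7-null (-0.92), the only one of 5 leukocyte markers with a call. Lyz2, the other one above background, had means of 13.194 in wild-type and 13.253 in Mmp7-null scratched cultures. Except for genes that also belong to the lists below, these marker differences were not checked with the control set as a block. Genotype and control set overlap in them as well. The part of these markers in the Tgm1, Scel, Sbsn and Ivl differences was not tested. In such cultures fewer cells of a type and less RNA per cell cannot be told apart.

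Markers also moved with scratching. Of all genes, 2.55% rose and 2.30% fell in wild-type, and 2.27% rose and 2.45% fell in Mmp7-null cultures. Of 6 mesenchymal markers, Dcn rose in both genotypes (by 1.58 in wild-type and 1.23 in Mmp7-null cultures) and Acta2 rose by 1.07 in wild-type cultures. The summed level of the 6 was 6.71 to 7.16 uninjured and 7.74 to 8.33 scratched in wild-type cultures, and 7.67 to 8.39 and 8.52 to 9.30 in Mmp7-null cultures. Dcn and Acta2 were the only ones of the 6 above background on all arrays, and Col1a1, Pdgfra and Pdgfrb lay at or about background. Col3a1 had a mean of 3.73 in scratched Mmp7-null cultures, with 2 arrays above background, and lay at background in the other groups. It gave no call.

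Of 7 basal markers 2 fell in each genotype, against 2.30% of all genes in wild-type and 2.45% in Mmp7-null cultures. These were Krt5 (by 0.80) and Trp63 in wild-type and Krt15 (by 0.45) and Krt5 (by 0.45) in Mmp7-null cultures. The summed level of the 7 was 14.48 to 14.63 uninjured and 14.34 to 14.46 scratched in wild-type cultures. In Mmp7-null cultures it was 14.60 to 14.68 and 14.14 to 14.39. Of 6 club markers only Muc5b, a gel-forming mucin, was called, and it rose by 3.26 and 2.64. Of 6 hillock markers Lgals3 fell in both genotypes (by 0.29 and 0.32) and Krt4 in Mmp7-null cultures (by 0.61). Of 5 leukocyte markers Cd68 rose in wild-type cultures (by 1.03), while Ptprc, Itgam and Cd3e were at background on all arrays. Lyz2 was above background on all arrays and gave no call. Its group means were 12.854 and 13.194 in wild-type and 12.845 and 13.253 in Mmp7-null cultures (uninjured, scratched). The part of these markers in the Sprr1a, Ivl and Sbsn differences was not tested.

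Cnfn, a small cornified envelope protein, read from 1.98 to 2.53 and gave no call in any comparison. Its highest value was in wild-type scratched array 3, one of the doubtful arrays.

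Among the secreted proteins, Sbsn (suprabasin, made by the layers above the basal layer) was the only one with a call. Its brightest probe set, 1459897_a_at, read 5.69, 5.61, 5.59 and 5.84 in uninjured and 5.82, 5.93, 6.01 and 6.14 in scratched wild-type cultures. In Mmp7-null cultures it read 6.13, 6.21, 6.24 and 5.92 uninjured and 5.61, 5.75, 5.67 and 5.94 scratched. Uninjured Mmp7-null cultures lay above all uninjured wild-type cultures, 1.36-fold on average (log2 fold change 0.44, SE 0.092, adjusted p = 0.013). With the set as a block that difference was 0.48 (adjusted p = 0.17), and within the Phe arrays 0.39 (adjusted p = 0.71).

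Sbsn fell 1.30-fold after scratching in Mmp7-null cultures (log2 fold change -0.38, SE 0.092, adjusted p = 0.030), with overlap at array 4 of each group. In wild-type cultures the scratch difference had the opposite sign and missed the threshold (0.29, SE 0.092, adjusted p = 0.094). The difference between the responses was -0.68 (SE 0.13, adjusted p = 0.080). The fall in Mmp7-null cultures lost its call without Mmp7-null uninjured 1, 2 or 3 or Mmp7-null scratched 1, 2 or 3 (adjusted p 0.058 to 0.091), and was -0.34 without the 3 doubtful arrays (adjusted p = 0.069). It was -0.40 among Lys arrays alone and -0.37 among Phe arrays alone (adjusted p = 0.22 and 0.48). A second probe set, 1439630_x_at, read from 5.35 to 6.14 and gave no call. There the scratch difference in Mmp7-null cultures was -0.02 and the genotype difference in uninjured cultures was 0.24 (SE 0.17 each). The third, 1459898_at, lay at background on all arrays. The Sbsn calls therefore rest on 1 of 3 probe sets.

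**Figure D2:**
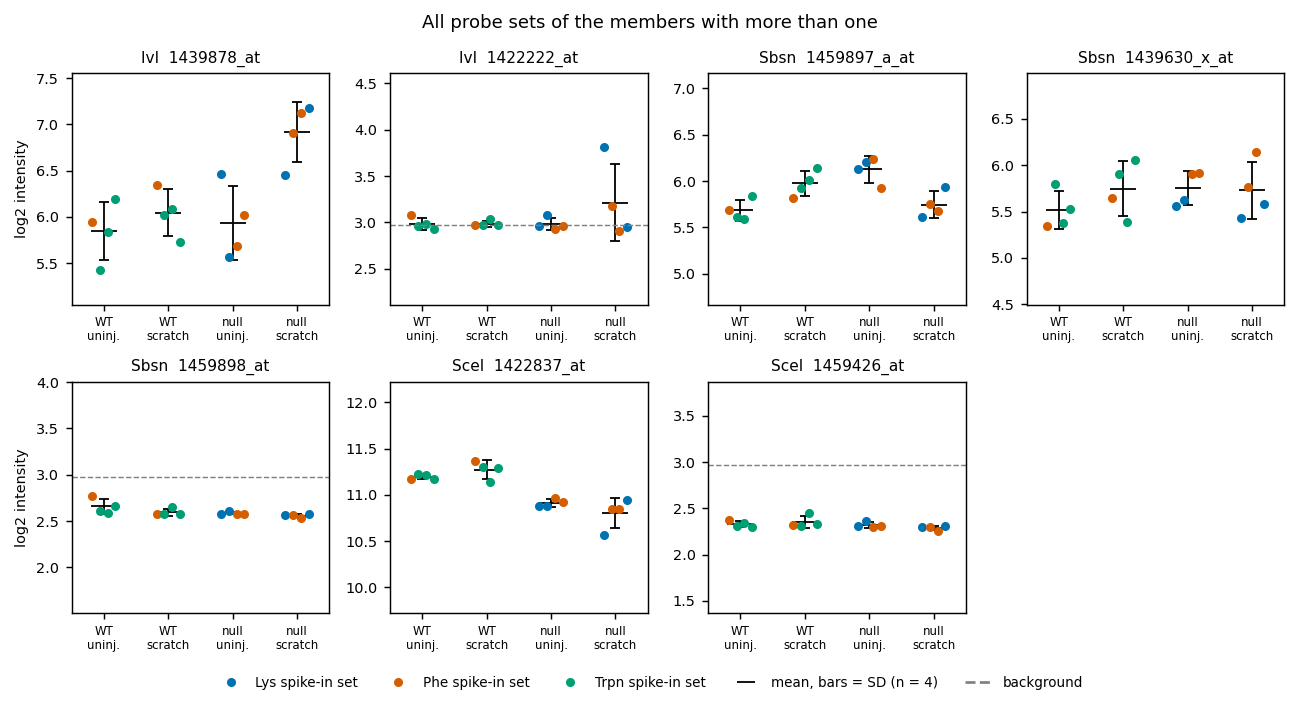
All probe sets of Ivl, Sbsn and Scel (log2 intensity, y axis) in the 4 groups (x axis), 1 point per array coloured by control set, with mean and SD (n = 4) and background dashed. The dimmer Ivl probe set and 1 probe set each of Sbsn and Scel lie at or about background, and the second Sbsn probe set shows overlapping groups.

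Krtdap, a secreted peptide of differentiating keratinocytes, ranged only from 2.21 to 2.31 and gave no call. Ecm1 is a secreted glycoprotein that is found in skin and also marks squamous-like hillock cells of the airway. It ranged from 11.42 to 12.25 and gave no call in any comparison. Its group means were 11.97 ± 0.14 and 11.95 ± 0.078 in wild-type and 11.93 ± 0.30 and 11.68 ± 0.32 in Mmp7-null cultures (uninjured and scratched, SD, n = 4 each). The SE of each Ecm1 difference was 0.16, and the scratched genotype difference of -0.27 (adjusted p = 0.30) lay within the spread of the Mmp7-null arrays.

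Ly6d, a surface protein of stratified epithelia, read from 2.75 to 4.24 and was above background on 15 of 16 arrays. The array at background was Mmp7-null uninjured 2 and the highest was Mmp7-null scratched 2. Its group means ran from 3.29 to 3.67, and none of its differences passed the test.

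The genes with a call were Sprr1a, Ivl, Tgm1, Scel and Sbsn, counted here by comparison. The share of all genes called in at least 1 comparison was not counted, so their total stands beside no share. Scratching wild-type cultures gave 1 higher (Sprr1a) and 0 lower, where 4.85% of all genes were called (2.55% higher, 2.30% lower). Scratching Mmp7-null cultures gave 2 higher (Sprr1a, Ivl) and 1 lower (Sbsn), against 4.72% of all genes (2.27% higher, 2.45% lower). The scratched and uninjured arrays did not overlap for 1 of the 10 genes in wild-type cultures (10% of all genes, 1824 of 18193) and for 1 in Mmp7-null cultures (12.8%), Sprr1a in each. Median log2 fold changes were 0.05 for the 10 genes and 0.01 for all genes in wild-type, and -0.01 and -0.02 in Mmp7-null cultures. The 10 genes did not share a direction in either genotype.

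Between genotypes, uninjured Mmp7-null cultures had 1 gene higher (Sbsn) and 2 lower (Tgm1, Scel), against 4.79% of all genes called (2.30% higher, 2.50% lower). Scratched Mmp7-null cultures had 1 higher (Ivl) and 2 lower (Tgm1, Scel), against 6.21% (3.29% higher, 2.92% lower). The genotypes did not overlap for 3 of the 10 genes uninjured (11.7% of all genes) and for 4 scratched (32.7%), of which Krtdap lay at background. The median differences were -0.02 and -0.17 for the 10 genes and -0.01 and -0.04 for all genes. Among genes with a mean above background the called shares were 7.52% (scratch in wild-type), 7.35% (scratch in Mmp7-null), 7.45% (genotype, uninjured) and 9.52% (genotype, scratched). The genotype and scratch comparisons share groups, so their counts are not independent of each other.

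No gene of the 10 was called for a difference between the genotypes' scratch responses by limma, where 0.132% of all genes were. Among the 10 genes the largest differences were those of Ivl (0.78, SE 0.31, adjusted p = 0.55) and Sbsn (-0.68, SE 0.13, adjusted p = 0.080). Sprr1a (-0.58, SE 0.33, adjusted p = 0.71) and Sprr3 (0.44, SE 0.18, adjusted p = 0.58) came next. The call of Ivl in Mmp7-null cultures alone is thus not shown to differ from its value in wild-type cultures.

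**Figure D3:**
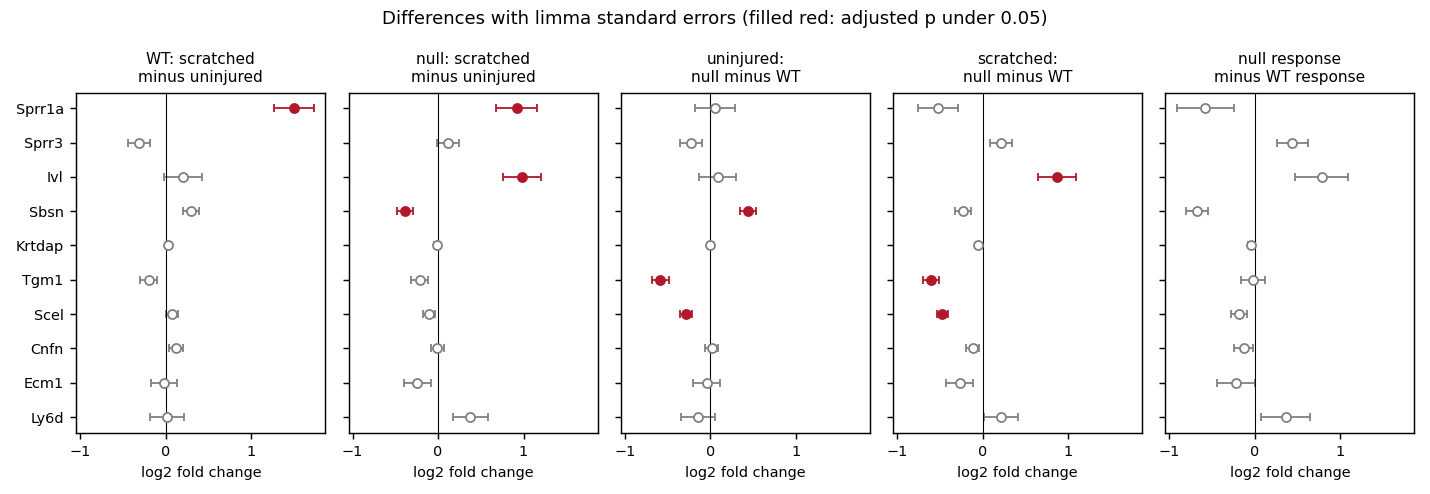
Log2 fold change (x axis) of the 10 genes (y axis) in the 5 comparisons, with limma standard errors; filled red points have an adjusted p under 0.05. The Sprr1a rise of 1.50 in wild-type cultures is the largest called change, Tgm1 and Scel are lower in both genotype comparisons, and no point is filled for the difference between responses.

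**Figure D4:**
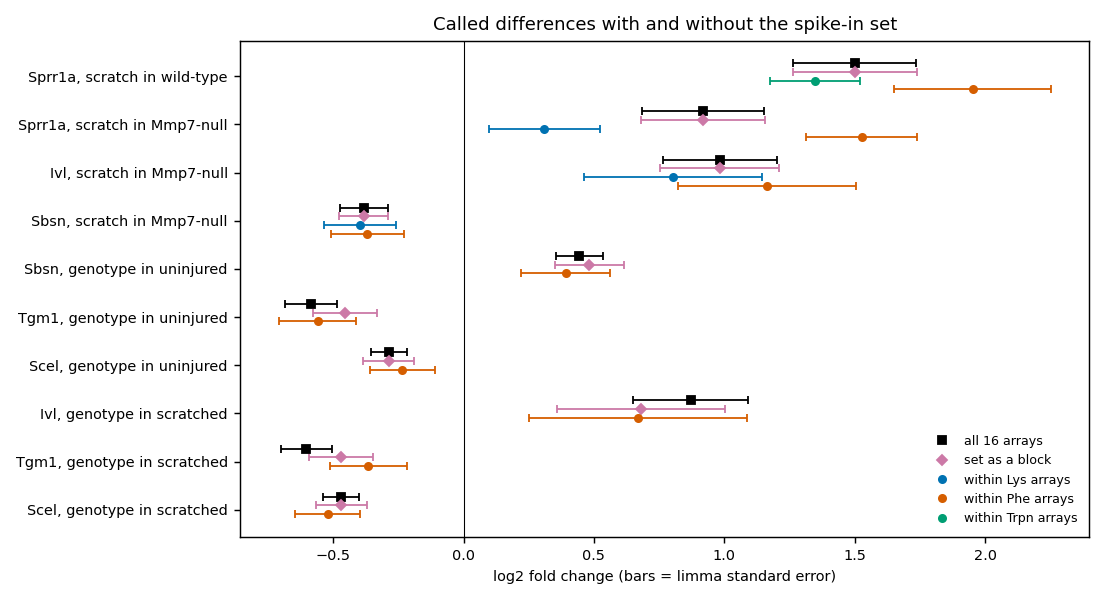
Log2 fold change (x axis) of each called gene and comparison (y axis) from all 16 arrays, with the control set as a block, and within each set that holds both groups; bars are limma standard errors. All estimates keep the sign of the value from all 16 arrays, and the Sprr1a rise in Mmp7-null cultures ranges from 0.31 within Lys arrays to 1.53 within Phe arrays.

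The epidermal differentiation complex spans 70 genes from S100a10 to S100a1 in gene order, of which 48 were measured. Besides Ivl, Sprr1a and Sprr3 these were 45 genes, 13 of them with a mean above background. After scratching, 2 of the 45 were higher and 0 lower in wild-type cultures, S100a13 (0.35) and S100a1 (0.31), against 4.85% of all genes called. In Mmp7-null cultures 0 of the 45 were called by limma, against 4.72%. S100a13 was the 1 gene higher in uninjured Mmp7-null cultures (0.29), against 4.79% of all genes called, and S100a1 the 1 gene lower in scratched ones (-0.27), against 6.21%. Sbsn and Krtdap lie on chromosome 7 on either side of Dmkn, which encodes dermokine, another secreted protein of the upper epidermis. Dmkn was higher in Mmp7-null cultures, by 0.70 uninjured (SE 0.14, adjusted p = 0.0093) and 0.92 scratched (SE 0.14, adjusted p = 0.0012). With the control set as a block the values were 0.74 (adjusted p = 0.15) and 0.96 (adjusted p = 0.042).

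Other genes of squamous differentiation were counted in lists. Their counts stand beside the shares of all genes called: after scratching 2.55% rose and 2.30% fell in wild-type and 2.27% rose and 2.45% fell in Mmp7-null cultures. Between genotypes 2.30% were higher and 2.50% lower uninjured, and 3.29% higher and 2.92% lower scratched. For a difference between the scratch responses 0.132% of all genes were called. Except where stated, the genes named from them kept their call in all 16 fits that left out 1 array. Of 42 other envelope precursors and crosslinkers, 14 had a mean above background. Scratching gave 0 higher and 2 lower in wild-type and 0 higher and 3 lower in Mmp7-null cultures, and the genotype comparisons gave 1 higher and 1 lower uninjured and 1 higher and 2 lower scratched. Ppl (periplakin, a linker of keratin to the envelope) fell by 0.33 in wild-type and by 0.41 in Mmp7-null cultures. Without the 3 doubtful arrays the wild-type value was -0.30 (adjusted p = 0.067). Cst6, a cysteine protease inhibitor of the epidermal barrier, fell by 1.25 after scratching in Mmp7-null cultures (SE 0.16, adjusted p = 0.00075). Evpl (envoplakin, the partner of periplakin) was lower in uninjured Mmp7-null cultures (-0.64, adjusted p = 0.0026), at -0.44 with the set as a block (adjusted p = 0.20).

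Of 24 squamous keratins and desmosome genes (14 above background), 2 rose and 2 fell after scratching in wild-type and 4 rose and 1 fell in Mmp7-null cultures. Krt23 rose by 1.01 in wild-type and 0.64 in Mmp7-null cultures, and Krt17, a keratin of injured epithelium, by 0.71 and 0.93. The wild-type call of Krt17 held in 13 of the 16 fits that left out 1 array and ended without the 3 doubtful arrays (adjusted p = 0.077). Jup (plakoglobin) and Perp, both desmosome genes, fell by 0.46 and 0.42 in wild-type cultures. Between genotypes 0 were higher and 2 lower uninjured, and 1 higher and 2 lower scratched. Krt4, a keratin of mucosal squamous epithelium, was lower in scratched Mmp7-null cultures (-0.59, adjusted p = 0.0058), at -0.53 with the set as a block (adjusted p = 0.068).

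Of 33 proteases, inhibitors and lipid enzymes (17 above background), 3 rose and 0 fell after scratching in wild-type, and 2 rose and 2 fell in Mmp7-null cultures. Serpinb2, a plasminogen activator inhibitor, rose by 2.11 in Mmp7-null cultures (SE 0.28, adjusted p = 0.00090). Between genotypes no gene was called uninjured, and 1 was higher and 4 lower scratched. Serpinb12 was higher in scratched Mmp7-null cultures (1.45), and Slpi, a secreted inhibitor of neutrophil elastase, was lower (-0.89). Slpi was also called for a difference between scratch responses (-0.94, SE 0.11, adjusted p = 0.0061), with group means of 10.13 and 10.45 in wild-type and 10.17 and 9.56 in Mmp7-null cultures (uninjured, scratched). Prss8, an epithelial serine protease, was the other gene of the list with such a call (-0.67, adjusted p = 0.037), which held in 5 of the 16 fits that left out 1 array and ended without the 3 doubtful arrays (adjusted p = 0.11).

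Of 32 regulators of squamous differentiation (27 above background), 1 rose and 6 fell after scratching in wild-type, and 2 rose and 1 fell in Mmp7-null cultures. Fosl2, an AP-1 subunit, rose by 0.56 and Fos, another, by 0.53 in Mmp7-null cultures. Fosl2 was also the 1 that rose in wild-type cultures (group means 10.51 uninjured and 10.86 scratched). That wild-type call was not followed through the fits that left out 1 array. No regulator was called for a difference between the scratch responses. Trp63 (-0.48) and Klf4 (-0.44), which direct the stratified and the barrier programme, and the Notch target Hes1 (-0.52) fell in wild-type cultures. The call of Trp63 ended without the 3 doubtful arrays (-0.40, adjusted p = 0.067). Between genotypes 0 were higher and 7 lower uninjured, and 1 was higher and 2 lower scratched. The 4 with the largest uninjured differences were Notch1 (-0.58, adjusted p = 0.00077), Junb (-0.39), Fosl2 (-0.39) and Hes1 (-0.39). With the set as a block Notch1 kept its call (-0.54, adjusted p = 0.044), and Fosl2, Junb and Hes1 lost theirs (adjusted p = 0.29, 0.79 and 0.79). The Junb and Hes1 calls held in 2 and 3 of the 16 fits that left out 1 array. Of 20 genes of retinoid handling (14 above background), 2 rose and 0 fell in wild-type, and 2 rose and 1 fell in Mmp7-null cultures. Fabp5, a fatty acid carrier that also delivers retinoic acid, rose by 2.06 in wild-type and 1.27 in Mmp7-null cultures, a difference between responses of -0.78 (SE 0.11, adjusted p = 0.019). Rdh10, which makes retinaldehyde, rose by 0.54 and 0.45. Between genotypes 1 retinoid gene was higher and 1 lower uninjured, and 0 were higher and 2 lower scratched.

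**Figure D5:**
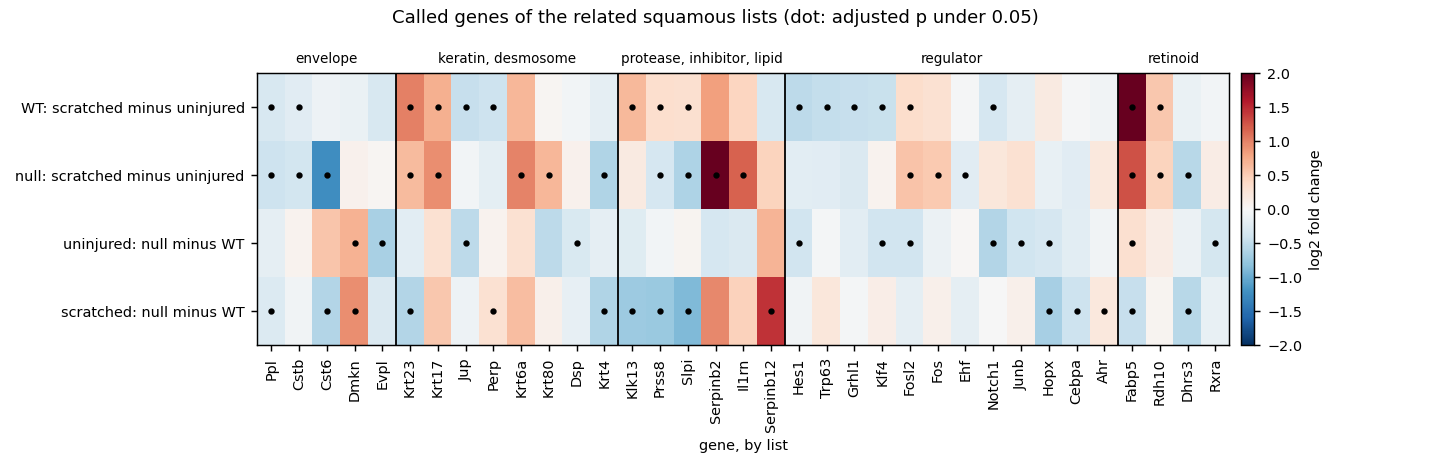
Log2 fold change (colour) of genes named from the related squamous lists (x axis) in the scratch and genotype comparisons (y axis); a dot marks an adjusted p under 0.05. Fabp5 (2.06 and 1.27) and Serpinb2 (2.11 in Mmp7-null cultures) hold the strongest scratch responses, and Cst6 falls by 1.25 in Mmp7-null cultures.

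The genes whose pattern over the 16 arrays was most like that of a member were found as the smallest root mean square difference of mean-centred log2 values among 11943 genes. For Sprr1a these were Cdca2 (0.287), Procr (0.289) and Col8a1 (0.289), against 0.702 for a flat profile. For Ivl they were Slc16a1 (0.280), Thbs1 (0.291) and Tcim (0.291), against 0.514 for a flat profile. For Tgm1 they were Blvrb (0.115), Emp2 (0.119) and Cndp2 (0.136), against 0.339. The likeness describes these arrays, which share groups and control sets.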

How the data were processed

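Each of the 16 cultures gave 1 Affymetrix array. The authors deposited linear intensities from RMA (per the submitters' processing notes; version not given in the sources used here). The table's 45101 probe sets are those of a larger array than the one the labels name, and were used as given. Log2 of the intensity was analysed with no further normalization. The 64 control probe sets and those with several symbols (932) or none (9160) were left out, and the brightest probe set by mean stood for each of 18193 genes. In R 4.3.3, limma 3.58.1 fitted a mean per group to all 16 arrays (12 residual degrees of freedom, eBayes, two-sided), with Benjamini-Hochberg adjustment over all genes at 0.05. The same model over all probe sets served the further probe sets, and its adjusted p is also given where a call of Ivl or Sprr1a ended with it. Errors of differences are standard errors, and the number of arrays limits the precision.

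The 10 genes, the lists and the 3 doubtful arrays were chosen with earlier results of these data known. Text names all 10 genes and at most 4 called genes of largest change per list and comparison, with Fosl2 in wild-type cultures added. The model was also run on simulated data, with changes planted in the wild-type scratch comparison alone. The simulated noise was independent between arrays and held no control-set effect, so that run says nothing about the genotype calls. Alternatives were the replicate number or control set as a block, fits within a set, the 8 compared arrays alone, removal of dim genes, the mean of probe sets, median centring, repeated quantile normalization, log2 of the value plus 1, and arrays left out. The labels name no pairs, and deviations of same-numbered arrays had correlations from -0.21 to 0.31, so the numbers were not taken as pairs. These correlations do not settle whether same-numbered cultures share an animal.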

Additional observations from a re-analysis of the deposited data

Results flagged for a closer look

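In 56 sets of 4 arrays (each probe set in each group), an array was looked for whose distance from the others took up nearly the whole range, which chance gives in about 1 of 20 such sets. It was found in 5, all on probe sets at or about background. Wild-type scratched array 3 was the highest of its group for the dimmer Ivl probe set (3.04, the others 2.97), for Cnfn (2.53, the others 2.10 to 2.11) and for the third Sbsn probe set (2.65, the others 2.57 to 2.58). On that Sbsn probe set Mmp7-null uninjured array 2 was also the highest of its group (2.60) and Mmp7-null scratched array 3 the lowest (2.53). None of the probe sets concerned gave a call.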

How the results depend on the processing

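The count of called genes moved by over 1.5 times as follows. For the scratch comparison in Mmp7-null cultures it was 3, and fell to 0 with only the 8 compared arrays, 0 among Lys arrays alone and 1 among Phe arrays alone. For the uninjured genotype comparison it was 3, and 0 among Phe arrays alone or when the control set was a block. For the scratched genotype comparison it was 3, and 1 with the 8 arrays alone or a block for the set, and 0 among Phe arrays alone. For the difference between scratch responses it was 0, and 1 (Sbsn) after removal of dim genes, where fewer genes were tested. Fits within a set rest on fewer arrays. The cause of these changes was not tested. With 1 array left out the counts ran from 1 to 1 (scratch, wild-type), 0 to 3 (scratch, Mmp7-null), 2 to 3 and 2 to 3 (genotype, uninjured and scratched) and 0 to 1 (difference). The scratch count in Mmp7-null cultures was 0 without Mmp7-null uninjured 3, and 1 without uninjured 2 or scratched 2, 3 or 4. The difference count was 1 without Mmp7-null uninjured 4. Same-numbered arrays had correlated deviations of -0.21 to 0.31, and a replicate block gave 1, 2, 2, 3 and 0 calls, with Sprr1a in Mmp7-null cultures (adjusted p = 0.053) and Scel in uninjured cultures (adjusted p = 0.055) losing theirs. Wild-type Sprr1a was called under all settings run. No called value of the 10 genes changed sign under these settings. Of the listed genes, Prss8 after scratching in wild-type was 0.34, and -0.0029 among Phe arrays alone (1 against 1).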
